A study of Mus musculus with 17 samples.

Results

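The proteasome genes were measured by bulk RNA sequencing of polyadenylated RNA in 17 hearts of mice aged 12 to 16 months. They were taken as the protein-coding genes whose symbol begins with *Psma* to *Psmg* followed by a digit, which gave 51 of the 56748 genes in the count table, of which 21970 were protein-coding. *Psmb8*, *Psmb9*, *Psmb10*, *Psme1* and *Psme2* were grouped as the 5 immunoproteasome genes, and the other 46 as constitutive. Of the hearts, 9 came from hMut mice and 8 from controls (Ctrl). The hMut genotype is *Polg* iMut/iMut; +/Ckmm-cre: both *Polg* alleles are switched by cre to a form of the mitochondrial DNA polymerase that cannot proofread, and cre is driven by the muscle creatine kinase promoter, which is active in cardiomyocytes and skeletal muscle. The labels name the control genotype only as Ctrl, so the alleles and the cre status of those mice are not given here, and cells of the heart other than cardiomyocytes are not the cells in which the promoter is known to be active. Hearts are named by their group and library number.

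The proteasome degrades proteins tagged with ubiquitin. Its barrel, the 20S core, is built of outer alpha rings and inner beta rings, and the catalytic sites lie on *Psmb5* (chymotrypsin-like), *Psmb6* (caspase-like) and *Psmb7* (trypsin-like). A 19S cap of ATPases and non-ATPase subunits unfolds substrates and feeds them into the core. In immune cells, and in many other cells exposed to interferon-gamma, newly made cores take up *Psmb8*, *Psmb9* and *Psmb10* in place of *Psmb5*, *Psmb6* and *Psmb7*, and the PA28 activator of *Psme1* and *Psme2* can replace the cap. This immunoproteasome cuts peptides that are well suited to presentation on MHC class I. The resting heart is known mainly for the constitutive form.

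Total counts lay between 34425783 and 46486964 per Ctrl heart and between 32915159 and 40175122 per hMut heart, and mitochondrially encoded genes took 23.5% to 30.9% of them in Ctrl and 15.9% to 23.0% in hMut. The tissue label was checked with 8 cardiomyocyte markers, all of them abundant in every heart, with *Myh6* at 363225 counts or more. In hMut replicates 6 and 9 the summed level of those markers was 31837 and 30047 CPM (counts scaled to library size with TMM factors), against 39203 to 47251 CPM in Ctrl and 38617 to 45871 CPM in the other 7 hMut hearts. The medians were 46173 CPM in Ctrl and 39548 CPM in those 7 hMut hearts, so a lower level was not limited to replicates 6 and 9. The summed level of 15 leukocyte markers was 1025 CPM in hMut replicate 6 and 495 CPM in hMut replicate 9, against 179 to 314 CPM in Ctrl and 228 to 303 CPM in the other hMut hearts. Abundant markers weigh most in such a sum. The sum of 4 fibroblast markers was 1369 and 1110 CPM in replicates 6 and 9, against 694 to 840 CPM in Ctrl. Results that rest on these 2 hearts are therefore given with and without them. In bulk tissue, fewer cells of a type cannot be told apart from less RNA per cell.

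The question asked of the genes was whether hMut hearts differed from Ctrl hearts in the constitutive or the immune form of the proteasome. Of the 51 genes, 50 passed the filter on low counts and were tested. Only *Psmd8*, a scaffold subunit of the 19S cap, rose past an adjusted p of 0.05, and no proteasome gene fell, by the quasi-likelihood test of edgeR with Benjamini-Hochberg adjustment over all 16195 genes tested. Over all those genes 4.62% were called, 3.48% higher and 1.14% lower, so that 1 of 50 is not above the background. An unadjusted p under 0.05 was reached by 6 of the 50, against 25.8% of all genes. In none of the 50 did the hMut hearts lie wholly above or wholly below the Ctrl hearts, which 0.605% of all genes did.

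**Figure D1:**
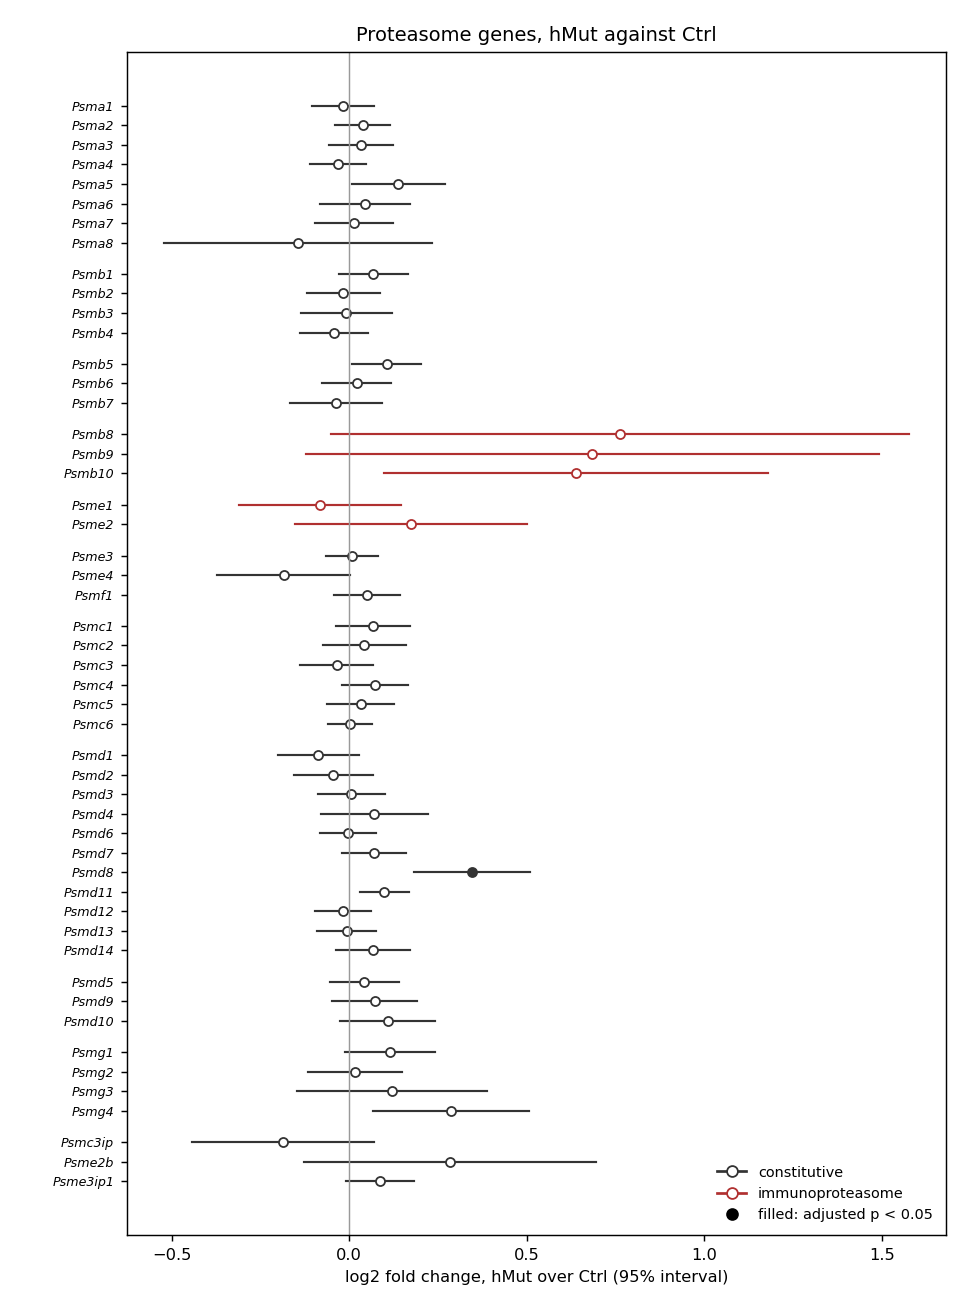
Log2 fold change of hMut (n = 9) over Ctrl (n = 8) for the 50 proteasome genes tested, ordered by role, with 95% intervals from the edgeR fit; immunoproteasome genes are red and the filled point is *Psmd8*, the gene past an adjusted p of 0.05. Most constitutive genes lie close to 0 with short intervals, and *Psmb8*, *Psmb9* and *Psmb10* lie to the right with the longest ones.

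The immunoproteasome catalytic subunits had the largest log2 fold changes of the 50 genes, and hMut replicate 6 held the highest value of each. *Psmb8* (chromosome 17, 34416695 to 34420428, plus strand; all coordinates are in GRCm39), which replaces *Psmb5* at the chymotrypsin-like site, was read at a lowest, median and highest level of 10.05, 10.8 and 15.8 CPM in Ctrl and 10.1, 11.8 and 79.9 CPM in hMut. The highest value was that of hMut replicate 6, the next was the 16.1 CPM of replicate 9, and the other 7 hMut hearts, at 10.1 to 13.9 CPM, lay within the Ctrl range. The fitted log2 fold change was 0.76 (SE 0.39, adjusted p = 0.219).

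*Psmb9* (chromosome 17, 34400961 to 34406738, minus strand), the subunit that replaces *Psmb6*, had a lowest, median and highest level of 7.72, 9.58 and 14.2 CPM in Ctrl and 8.34, 9.52 and 65.5 CPM in hMut. Here only hMut replicate 6 lay above every Ctrl heart, and the group medians were alike. Its log2 fold change was 0.68 (SE 0.38, adjusted p = 0.260). *Psmb9* and *Psmb8* lie 9956 bases apart, with *Tap1*, a subunit of the peptide transporter that serves MHC class I, between them. The genes *Psmb9* and *Tap1* run in opposite directions, and their canonical transcripts in GENCODE M39 have start sites 363 bases apart. Their spans in the count table, which are drawn differently, share 212 bases. The strand setting of the counting is not given in the sources used here, so reads from those shared bases could have been assigned to either.

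*Psmb10* (chromosome 8, 106662367 to 106665076, minus strand), the subunit that replaces *Psmb7*, was the most abundant of them, at 31.2, 34.5 and 44.5 CPM in Ctrl (lowest, median, highest) and 34.7, 42.2 and 159 CPM in hMut. It was above every Ctrl heart in hMut replicates 3, 6 and 9, at 45.6, 159 and 52.1 CPM. The log2 fold change was 0.64 (SE 0.26), with an unadjusted p of 0.0230 and an adjusted p of 0.136 in the edgeR fit. Without hMut replicates 6 and 9 it was 0.20 (adjusted p = 0.164), while *Psmb8* came to -0.02 (adjusted p = 0.949) and *Psmb9* to -0.05 (adjusted p = 0.850) in the same fit.

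The PA28 genes differed less. *Psme1* (chromosome 14, 55815580 to 55818986, plus strand) encodes PA28 alpha and was read at 78.6, 84.8 and 96.3 CPM in Ctrl and 60.5, 78.8 and 127 CPM in hMut (lowest, median, highest). Its hMut hearts spread to both sides of the Ctrl range: replicate 6 was above every Ctrl heart and 4 others were below, the lowest being replicate 9. *Psme2* (chromosome 14, 55824898 to 55828570, minus strand), which encodes PA28 beta and starts its span 5911 bases beyond the end of *Psme1*, was read at 37.8, 40.2 and 43.3 CPM in Ctrl and 36.3, 39.8 and 94.4 CPM in hMut. Only replicate 6 was above the Ctrl hearts, and 2 hMut hearts were below them. The log2 fold changes were -0.08 (SE 0.11, adjusted p = 0.651) for *Psme1* and 0.17 (SE 0.16, adjusted p = 0.483) for *Psme2*. Without replicates 6 and 9 they came to -0.15 (adjusted p = 0.176, edgeR) and -0.02. That of *Psme1* was -0.19 without replicate 6 alone and -0.20 (adjusted p = 0.0506) in limma-voom with quality weights. The log2 ratio of *Psme1* to *Psme2* counts, chosen after its values were seen and so not tested, was 0.97 to 1.18 in Ctrl and 0.43 to 1.12 in hMut, with hMut replicate 6 the lowest.

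**Figure D2:**
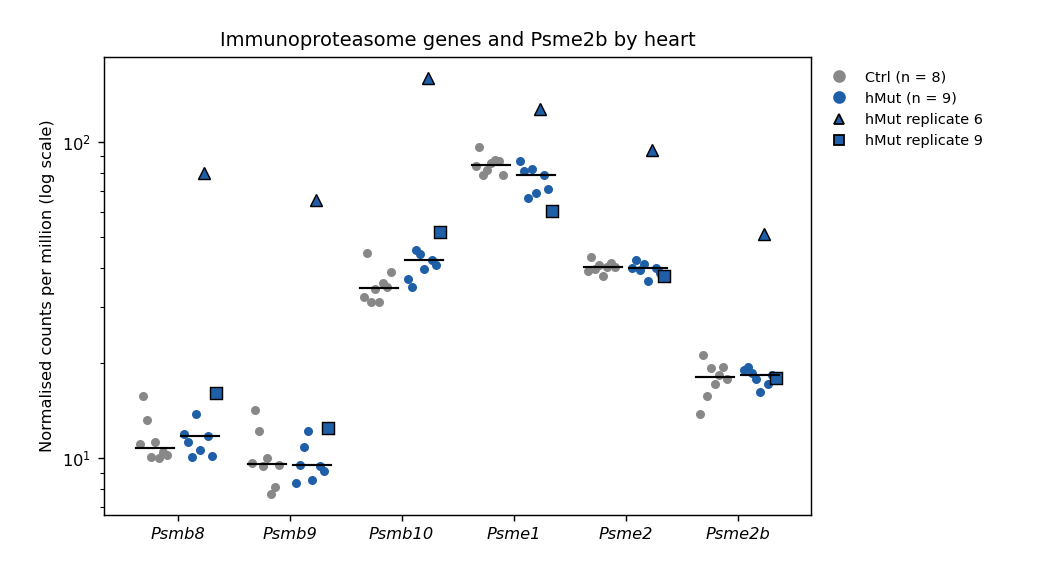
Normalised CPM on a log axis for the 5 immunoproteasome genes and *Psme2b* in each heart; grey points are Ctrl (n = 8), blue points hMut (n = 9), the triangle is hMut replicate 6, the square hMut replicate 9, and lines are group medians. In every gene the triangle is the highest point, while the other hMut hearts mostly overlap the Ctrl hearts.

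Within hMut replicate 6, the fold over the Ctrl mean was 6.93 for *Psmb8*, 6.47 for *Psmb9*, 4.50 for *Psmb10*, 2.34 for *Psme2* and 1.49 for *Psme1*. All 5 were above every Ctrl heart there, as were 31.1% of all genes tested, and 22 of the 45 constitutive genes. The 3 catalytic subunits were at least 4 times the Ctrl mean, which 3.06% of all genes were in that heart. The highest constitutive gene was *Psme2b*, at 2.86 times the Ctrl mean. Next came *Psmg4*, a core assembly chaperone, at 1.62 times. In the same heart 12 of the 15 leukocyte markers were above every Ctrl heart, against 31.1% of all genes. In hMut replicate 9, 7 of the 15 were, against 27.9% of all genes. Markers with the clearest values in hMut replicate 6, chosen after these were seen, were *Cd8a* and *Lyz2*. *Cd8a*, the T cell co-receptor, was read at 25.9 CPM in hMut replicate 6 and at 2.25 CPM or less in Ctrl. *Lyz2*, a lysozyme of macrophages, was at 657 CPM in hMut replicate 6 and at 178 CPM or less in Ctrl. *Lyz2* alone thus made up most of the summed leukocyte markers of hMut replicate 6. The B cell marker *Cd79a*, also chosen with its values known, was at 1.49 CPM in hMut replicate 6 and at up to 10.9 CPM in Ctrl. *Cd3d* and *Cd8a* were at 3 counts or fewer in 3 and 2 of the 17 hearts. Of the 15 leukocyte markers 0 were called between the groups by edgeR, DESeq2 or limma-voom. In edgeR 8 had an unadjusted p under 0.05, against 25.8% of all genes. The part of leukocytes in the immunoproteasome values was not tested.

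In hMut replicate 9 the same genes parted. *Psmb8* was 1.39 times, *Psmb9* 1.23 times and *Psmb10* 1.47 times the Ctrl mean, whereas *Psme1* was 0.712 times and *Psme2* 0.933 times, both below every Ctrl heart. A score, the mean over the 5 genes of the log2 CPM minus its Ctrl mean, was 1.90 in hMut replicate 6, 0.16 in hMut replicate 9, -0.12 to 0.18 in the other 7 hMut hearts and -0.09 to 0.32 in Ctrl. The highest Ctrl score was that of Ctrl replicate 2, so hMut replicate 9 lay inside the Ctrl range by this measure although its leukocyte marker sum did not.

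**Figure D3:**
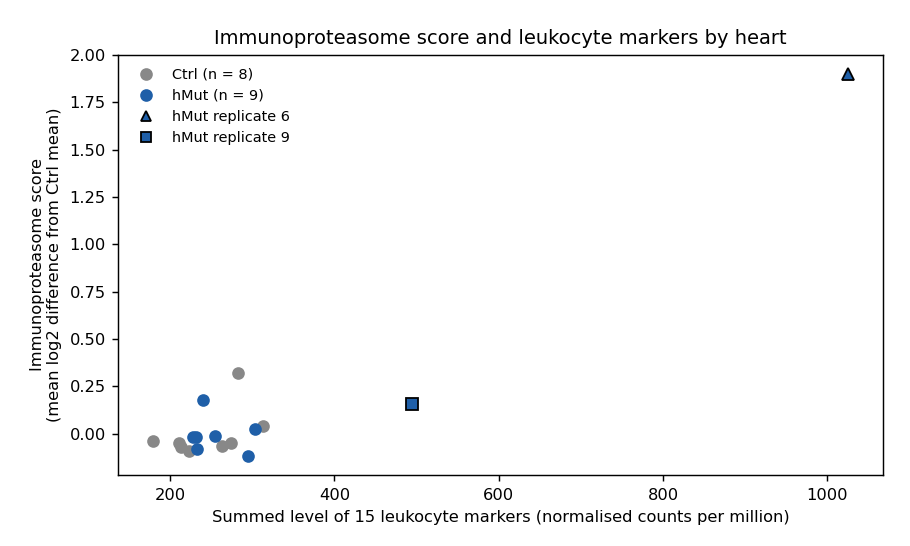
Immunoproteasome score (mean log2 difference from the Ctrl mean over the 5 genes) against the summed CPM of 15 leukocyte markers, 1 point per heart, Ctrl grey and hMut blue. hMut replicate 6 (triangle, score 1.90 at 1025 CPM) stands alone, hMut replicate 9 (square, 0.16 at 495 CPM) has a raised marker sum but a score among the Ctrl hearts, and all other hearts are at 314 CPM or less.

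The exchange of subunits was read as the log2 ratio of each immune subunit to the constitutive subunit whose place it takes, which does not depend on how libraries are scaled. The ratio of *Psmb10* to *Psmb7* was -1.61 ± 0.18 (SD, n = 8) in Ctrl and -1.10 ± 0.75 (SD, n = 9) in hMut, a difference of 0.51. It was above every Ctrl heart in 4 of 9 hMut hearts (replicates 3, 4, 6 and 9). With every one of the 24310 ways to divide the hearts into groups of these sizes, the exact permutation test (two-sided) gave p = 0.0317, and 0.0950 after adjustment over the 3 ratios. Without hMut replicate 6 the difference was 0.28 (adjusted p = 0.120, exact permutation test). Without hMut replicates 6 and 9 it was 0.18 (adjusted p = 0.239, exact permutation test), with an hMut mean of -1.43 ± 0.18 (SD, n = 7). Leaving out hMut replicate 1 or 2, the hMut hearts with the lowest ratios, gave 0.57 and 0.59, with adjusted p-values of 0.0406 and 0.0163 in the same permutation test.

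The ratio of *Psmb8* to *Psmb5* was -2.74 ± 0.26 (SD, n = 8) in Ctrl and -2.48 ± 0.99 (SD, n = 9) in hMut (difference 0.25, two-sided exact permutation p = 0.728, adjusted p = 0.728). That of *Psmb9* to *Psmb6* was -3.11 ± 0.31 (SD, n = 8) and -2.82 ± 0.96 (SD, n = 9) (difference 0.29, exact permutation p = 0.604, adjusted p = 0.728). Both differences turned negative, to -0.07 and -0.02, without hMut replicate 6. Neither ratio was distinguishable from Ctrl at this spread.

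**Figure D4:**
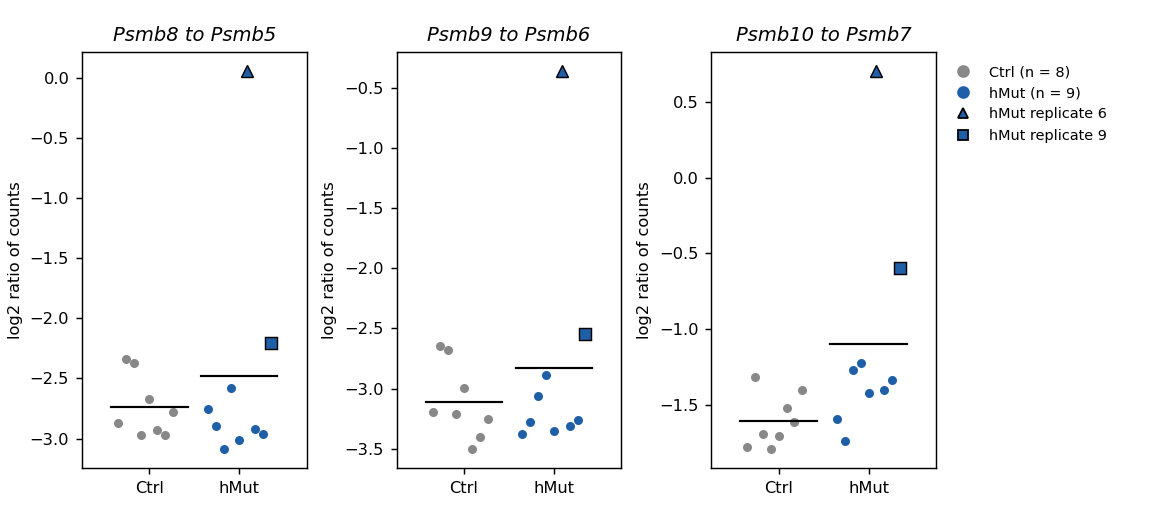
Log2 ratio of the counts of each immune catalytic subunit to its constitutive counterpart in each heart, with group means as lines; Ctrl grey (n = 8), hMut blue (n = 9). hMut replicate 6 (triangle) is highest in every panel, at 0.06, -0.36 and 0.71, and in the panel of *Psmb10* to *Psmb7* hMut replicate 9 (square, -0.60) and 2 further hMut hearts also lie above the Ctrl hearts.

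Per length of the gene as the count table gives it, *Psmb8* made up 3.28% to 5.01% of the sum of *Psmb8* and *Psmb5* in Ctrl, 21.7% in hMut replicate 6, 5.45% in hMut replicate 9 and 3.03% to 4.25% in the other hMut hearts. For *Psmb9* within *Psmb9* and *Psmb6* the share was 4.32% to 7.56% in Ctrl and 28.5% in hMut replicate 6. *Psmb10* held a far larger share of its pair, at 36.6% to 44.6% in Ctrl, 57.0% in hMut replicate 9 and 76.6% in hMut replicate 6. The order of these shares, with *Psmb10* above *Psmb9* and *Psmb8*, was thus already present in Ctrl hearts. The size of the gap rests on the lengths: 3381 bases for *Psmb8* and 899 for *Psmb5*, but 1705 for *Psmb10* and 3421 for *Psmb7*. By counts alone *Psmb10* also led in Ctrl, with mean log2 ratios of -1.61, -2.74 for *Psmb8* and -3.11 for *Psmb9*, so *Psmb8* then stood above *Psmb9*. How the lengths were defined is not given. These are shares of transcript per length, and incorporation into the particle was not measured.

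Promoter sequence is shown for the *Psmb8* and *Psmb5* pair and for the *Psmb9* and *Psmb6* pair, the pairs whose log2 ratio in hMut replicate 6 stood farthest above its Ctrl mean, by 2.80 and 2.75, against 2.31 for *Psmb10* to *Psmb7*. Each runs 5′ to 3′ on the gene's own strand from 250 bases before the start site of the canonical GENCODE M39 transcript through the first 50 transcribed bases, read from GRCm39. Capitals mark a match to TTCNNNGAA, the letters of the gamma interferon activation site, or to TGACNNNGC, the core of the antioxidant response element that NRF1, the product of *Nfe2l1*, and related factors bind.
Psmb8, chr17:34416440-34416739, plus strand: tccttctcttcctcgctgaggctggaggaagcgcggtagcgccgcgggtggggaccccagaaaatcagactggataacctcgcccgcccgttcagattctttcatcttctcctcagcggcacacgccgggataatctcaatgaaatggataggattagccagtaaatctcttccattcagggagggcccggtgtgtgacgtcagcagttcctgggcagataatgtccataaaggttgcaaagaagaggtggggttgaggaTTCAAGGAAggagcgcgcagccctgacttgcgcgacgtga
Psmb5, chr14:54855432-54855731, minus strand: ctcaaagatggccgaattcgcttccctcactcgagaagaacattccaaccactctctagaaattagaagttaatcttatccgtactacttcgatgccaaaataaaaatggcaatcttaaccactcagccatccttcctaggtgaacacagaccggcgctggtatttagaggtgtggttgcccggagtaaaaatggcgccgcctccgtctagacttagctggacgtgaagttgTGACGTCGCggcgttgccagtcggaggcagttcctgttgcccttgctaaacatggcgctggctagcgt
Psmb9, chr17:34406689-34406988, minus strand: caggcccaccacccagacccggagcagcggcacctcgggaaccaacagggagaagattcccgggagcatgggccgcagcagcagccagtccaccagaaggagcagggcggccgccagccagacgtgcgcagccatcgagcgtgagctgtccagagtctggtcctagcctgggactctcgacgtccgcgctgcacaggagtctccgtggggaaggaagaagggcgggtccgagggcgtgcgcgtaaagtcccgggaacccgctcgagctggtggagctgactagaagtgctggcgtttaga
Psmb6, chr11:70415933-70416232, plus strand: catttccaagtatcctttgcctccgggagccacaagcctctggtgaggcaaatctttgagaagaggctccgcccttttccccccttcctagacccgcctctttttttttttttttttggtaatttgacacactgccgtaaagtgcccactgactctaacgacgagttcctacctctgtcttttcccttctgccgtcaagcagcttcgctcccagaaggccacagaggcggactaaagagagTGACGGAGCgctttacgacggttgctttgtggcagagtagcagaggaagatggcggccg

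In *Psmb8* the activation site letters begin at base 11 of the transcript, and in *Psmb5* and *Psmb6* the antioxidant core begins 18 and 9 bases before the start site. Windows of this length were read for all 51 proteasome genes and searched on both strands, with overlaps between motifs allowed, as were those of 13710 tested genes. TTCNNNGAA was found in 1 of 5 immunoproteasome and 4 of 46 constitutive genes, against 7.53% of all windows. TGACNNNGC was found in 0 of 5 and 8 of 46, against 13.6%. GAAA and GAAA with 2 bases between them, letters of the interferon regulatory factor element, was found in 0 of 5 and 7 of 46, against 3.71%, and the constitutive genes that held it were *Psma4*, *Psma5*, *Psmb3*, *Psmd4*, *Psmd7*, *Psmd9* and *Psmg4*. CCAAT was found in 1 of 5 and 18 of 46, against 39.1%. A match describes the letters of the window and is not evidence of binding, and only 4 of the 51 genes have the same start and end in the count table and in GENCODE M39.

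The constitutive genes were as a whole close to Ctrl. Over the 45 tested, the median log2 fold change was 0.03 (range -0.19 to 0.35), beside 0.00 over all genes, and 30 were above 0, against 50.5% of all genes (26, against 46.9%, with upper-quartile scaling). The 95% interval lay within 1.25-fold in either direction for 38 of the 45, which held for 45.7% of all genes, so that for these 38 a change of that size was outside the interval. The median SE was 0.05 on the log2 scale, against 0.26 for the 5 immunoproteasome genes.

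*Psmd8* (chromosome 7, 28873613 to 28880126, minus strand) was the exception. Its lowest, median and highest level was 70.3, 77.5 and 82.7 CPM in Ctrl and 77.5, 105 and 119 CPM in hMut. In 7 of 9 hMut hearts it was above every Ctrl heart, and the remaining pair, replicates 1 and 2 at 77.5 and 80.7 CPM, lay within the Ctrl range. The mean rose from 77.1 ± 4.51 (SD, n = 8) to 98.0 ± 14.5 CPM (SD, n = 9), a log2 fold change of 0.35 (SE 0.08, adjusted p = 0.0169, edgeR). hMut replicate 9 was highest, at 119 CPM, unlike its place among most proteasome genes. Without hMut replicates 6 and 9 the log2 fold change was 0.28 (adjusted p = 0.0408), and 1.96% of all genes were called higher in that fit.

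*Psmd11*, another scaffold subunit of the cap, was at 85.8, 91.8 and 94.1 CPM in Ctrl and 93.8, 96.6 and 107 CPM in hMut (lowest, median, highest). It too was above every Ctrl heart in 7 of 9 hMut hearts, by a smaller amount (log2 fold change 0.10, SE 0.03, adjusted p = 0.0813, edgeR). DESeq2 called it (adjusted p = 0.0403) in a fit that called 6.21% of all genes higher. None of the other 9 non-ATPase subunits of the cap or of the 6 ATPases, *Psmc1* to *Psmc6*, passed the test in edgeR, DESeq2 or limma-voom. The ATPases lay between -0.03 and 0.07 on the log2 scale, and their 95% intervals were all within 1.25-fold. Per length, *Psmc3* was the highest ATPase in Ctrl at 78.9 and *Psmc2* the lowest at 16.8 CPM per kilobase of gene length (RPKM). Among the non-ATPase subunits these were *Psmd2* at 65.5 and *Psmd11* at 14.2 RPKM.

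**Figure D5:**
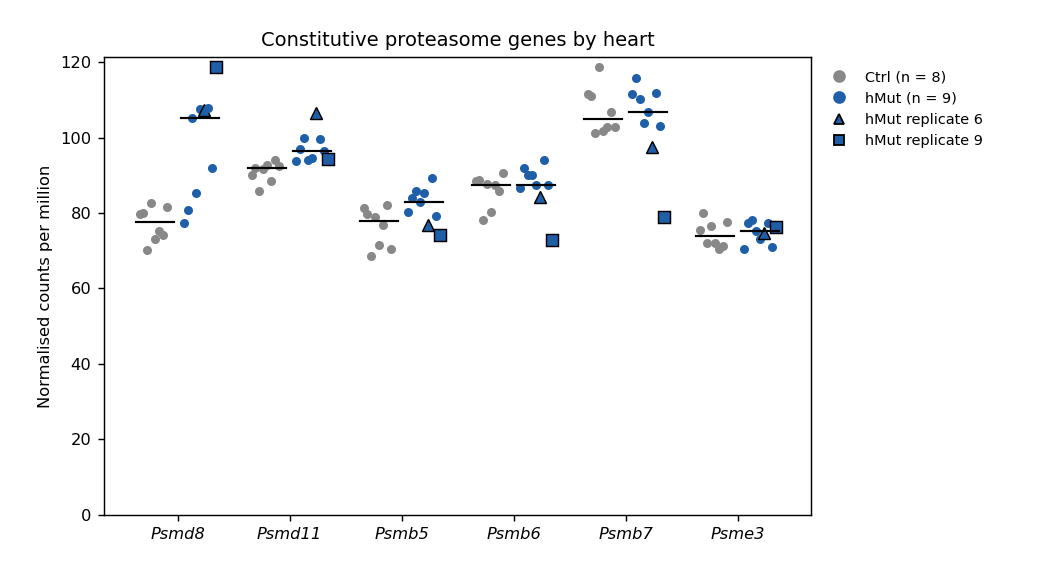
Normalised CPM of 6 constitutive genes in each heart on an axis from 0, with group medians as lines; Ctrl grey (n = 8), hMut blue (n = 9), triangle hMut replicate 6, square hMut replicate 9. *Psmd8* and *Psmd11* are above every Ctrl heart in 7 of 9 hMut hearts, *Psme3* overlaps wholly, and hMut replicate 9 is the lowest point of *Psmb5*, *Psmb6* and *Psmb7* among the hMut hearts.

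In the 20S core, the constitutive catalytic subunits stayed near Ctrl. *Psmb5* was at 68.7, 77.8 and 82.3 CPM in Ctrl and 74.1, 83.0 and 89.2 CPM in hMut, with 5 of 9 hMut hearts above every Ctrl heart (log2 fold change 0.11, SE 0.05, unadjusted p = 0.0358 and adjusted p = 0.166, edgeR). limma-voom with quality weights called it (0.13, adjusted p = 0.0457), in a fit that called 7.26% of all genes higher. *Psmb6* had a log2 fold change of 0.02 (SE 0.05) and *Psmb7* one of -0.04 (SE 0.06). Both were lowest in hMut replicate 9, at 72.8 CPM against 78.2 to 90.6 CPM in Ctrl for *Psmb6*, and at 78.9 CPM against 101 to 119 CPM for *Psmb7*. The low *Psmb7* therefore enters the high *Psmb10* to *Psmb7* ratio of that heart.

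Of the 8 alpha ring genes 0 were called by edgeR, DESeq2 or limma-voom, and 1 had an unadjusted p under 0.05 in edgeR. That gene was *Psma5*, with 45.1, 48.8 and 52.8 CPM in Ctrl and 46.0, 51.7 and 67.3 CPM in hMut (log2 fold change 0.14, SE 0.06, unadjusted p = 0.0396, adjusted p = 0.174, edgeR). *Psma6* was the highest of all proteasome genes per length, at 94.8 RPKM in Ctrl. *Psma8*, an alpha subunit of the testis, was the lowest that passed the filter, at 0.463 RPKM. The structural beta subunits *Psmb1* to *Psmb4* lay between -0.04 and 0.07 on the log2 scale and had intervals within 1.25-fold. *Psmb4* was the highest of them at 54.5 RPKM and *Psmb1* the lowest at 22.4 RPKM. *Psmb11*, the catalytic subunit of the thymus form, was at 0 or 1 count in every heart, no more than the floor of 3 counts, and was not tested.

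The assembly chaperones of the core, *Psmg1* to *Psmg4*, all had positive log2 fold changes, and 0 of 4 passed the test in edgeR, DESeq2 or limma-voom. *Psmg4* was at 3.90, 4.97 and 6.06 CPM in Ctrl and 5.03, 6.14 and 8.22 CPM in hMut, above every Ctrl heart in 5 of 9 (log2 fold change 0.29, SE 0.10, unadjusted p = 0.0129, adjusted p = 0.108, edgeR). The values were 0.12 (SE 0.06) for *Psmg1*, 0.12 (SE 0.13) for *Psmg3* and 0.02 (SE 0.06) for *Psmg2*. The chaperones that help to build the cap, *Psmd5*, *Psmd9* and *Psmd10*, lay between 0.04 and 0.11.

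Other activators bind the ends of the core in place of the cap. *Psme4*, which encodes PA200, was the most abundant proteasome gene in CPM, at 319, 333 and 392 CPM in Ctrl and 230, 305 and 416 CPM in hMut. It was below every Ctrl heart in 5 of 9 hMut hearts and above every Ctrl heart in replicate 2 (log2 fold change -0.18, SE 0.09, adjusted p = 0.198, edgeR). Without hMut replicate 2 it was called lower, at -0.25 (adjusted p = 0.0318), in a fit that called 4.12% of all genes lower. *Psme3*, which encodes the nuclear PA28 gamma, lay at 70.4 to 79.9 CPM in Ctrl and 70.6 to 78.2 CPM in hMut (log2 fold change 0.01, SE 0.04), unlike its relatives *Psme1* and *Psme2* in hMut replicate 6, where it was at 1.004 times the Ctrl mean. *Psmf1*, an inhibitor of the core, had a log2 fold change of 0.05 (SE 0.04).

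Of the genes that the symbol alone brought in, *Psmc3ip* is a recombination factor and *Psme3ip1* a partner of PA28 gamma. Their log2 fold changes were -0.19 (SE 0.12, adjusted p = 0.331) and 0.09 (SE 0.05, adjusted p = 0.234). *Psme2b* (chromosome 11, 48836181 to 48837017, minus strand) is a near-copy of *Psme2* with 1 exon where *Psme2* has 11. It was grouped as constitutive by the naming rule, but it was read at 13.8 to 21.2 CPM in Ctrl, at 51.1 CPM in hMut replicate 6 and at 16.2 to 19.4 CPM in the other hMut hearts, the same pattern as *Psme2*. Over 717 aligned coding bases the genes differ at 5 and are 99.3% identical, and *Psme2b* lies wholly within *Gm12185* on the same strand. The stretch of 120 coding bases with the most differences is shown, bases 424 to 543 of each coding sequence in GRCm39, with the 3 differing bases in capitals.
Psme2: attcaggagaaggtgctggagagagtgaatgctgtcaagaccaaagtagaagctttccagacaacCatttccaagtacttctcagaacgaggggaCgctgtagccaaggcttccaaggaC
Psme2b: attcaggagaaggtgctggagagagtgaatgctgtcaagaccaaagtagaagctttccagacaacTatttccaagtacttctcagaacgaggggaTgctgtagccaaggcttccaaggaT
Reads from most of this sequence could come from either gene, so the values of *Psme2* and *Psme2b* are uncertain apart from each other. Of 5 pseudogene rows with proteasome names, which were not members, *Psma5-ps* held 95 to 173 counts per heart and the others 0 to 3.

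hMut replicate 9 was low in many constitutive genes: 20 of 45 were below every Ctrl heart and 3 above, where 26.6% and 27.9% of all genes were. Those below included *Psmd1* (log2 difference from the Ctrl mean -0.40), *Psmb3* (-0.39), *Psmb4* (-0.28) and *Psmd2* (-0.29). In hMut replicate 6 the median log2 difference of the 45 was 0.08, against 2.17 for the immunoproteasome genes. The mean over the constitutive genes, scored like the immunoproteasome genes, ranged from -0.11 (replicate 3) to 0.04 in Ctrl and from -0.09 (replicate 9) to 0.14 (replicate 6) in hMut. By this score hMut replicate 9 lay within the Ctrl range.

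Other genes of the pathway were read from lists of genes outside the 51. Of 24 tested proteasome cofactors and regulators, among them ubiquitin receptors, deubiquitinases and the shuttle factors that bring substrates, 0 were called by edgeR or DESeq2 and 1, *Nfe2l1*, by limma-voom. In edgeR 2 had an unadjusted p under 0.05, against 25.8% of all genes, and the median log2 fold change was 0.01. *Nfe2l1*, the transcription factor that raises proteasome genes when degradation falls short, had a log2 fold change of 0.10 (SE 0.05, adjusted p = 0.199), and 6 of 9 hMut hearts exceeded all Ctrl hearts. *Pomp*, the chaperone of core maturation, had one of 0.03 (SE 0.06, adjusted p = 0.758). The 6 ubiquitin and E1 enzyme genes gave 0 calls by edgeR, DESeq2 or limma-voom, and 0 had an unadjusted p under 0.05 in edgeR.

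Of 17 genes of antigen processing and interferon signalling 0 were called by edgeR. There 3 had an unadjusted p under 0.05, against 25.8% of all genes, and the median log2 fold change was 0.22. DESeq2 and limma-voom each called 1, the chaperone *Canx*, lower. The share of all genes that these tools called lower was not read, so this count has no background beside it. In hMut replicate 6, 15 of the 17 were above every Ctrl heart, against 31.1% of all genes. There *Tap1* was 8.73 times, *Nlrc5*, the transactivator of MHC class I genes, 8.40 times and *Irf1*, a transcription factor induced by interferon-gamma, 3.54 times the Ctrl mean. Between the groups, *Tap1* had a log2 fold change of 0.87 (SE 0.46, adjusted p = 0.236), *Nlrc5* 0.92 (SE 0.44, adjusted p = 0.197) and *Irf1* 0.32 (SE 0.25, adjusted p = 0.409). All 3 values were below 0 without hMut replicates 6 and 9, between -0.16 and -0.08.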

How the data were processed

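RNA was extracted from heart tissue with an RNeasy kit, and poly(A)-selected libraries were sequenced on a NovaSeq X Plus. Read filtering was done by the authors with fastp and alignment with HISAT2 2.2.1 on the GRCm39 build. The deposited unit is the raw count per gene from featureCounts 2.0.6, not normalised. The strand setting and the definition of gene length are not given in the sources used here. Libraries were grouped by their labels, 9 hMut and 8 Ctrl. Each library was treated as a separate heart.

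CPM and per-length levels (RPKM) were computed with TMM-normalised library sizes and the gene lengths in the table. The 16195 genes passing filterByExpr were fitted in edgeR 4.0.16 (R 4.3.3) by quasi-likelihood, on condition alone, and p-values were adjusted by Benjamini-Hochberg with a threshold of 0.05. Each SE was derived from the log2 fold change and its F statistic. Genes were scored on log2 CPM with a prior count of 2. Ratios were compared by an exact permutation test. A floor of 3 counts was used, and intervals and floors cover sampling of counts and the fitted spread only. The code was tested on simulated data. Alternatives were DESeq2 (version 1.42.0), limma-voom with quality weights (limma 3.58.1), RLE and upper-quartile scaling, no filter or 1 CPM in 8 libraries, nuclear protein-coding genes alone, sex (read from the counts) as a covariate, the library number as a block, group medians or 0.5 added to each count for the ratios, each library left out in turn, and hMut replicates 6 and 9 left out together.

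The 51 genes, the lists and the alternatives were chosen with earlier results of these data known. Named were all immunoproteasome genes and their counterparts, *Psme3*, *Psme4* and *Psmf1*, genes past the threshold, the 5 constitutive genes with the smallest p, the highest and lowest gene per length of each role, genes that were filtered out or are no subunits, and *Nfe2l1*, *Pomp*, *Tap1*, *Nlrc5* and *Irf1*. 1 further gene of the rule is not reported here. Any other gene was named after its values were seen. Paaf1, on the cofactor list, was not found under that symbol. Start sites came from GENCODE M39, and coding sequences were aligned with BLAST (version 2.17.0).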

Additional observations from a re-analysis of the deposited data

Results flagged for a closer look

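Of 82 sets of Ctrl or hMut values of the named genes, scores and ratios, 21 held a heart whose gap to its nearest neighbour was above Dixon's 95% critical value, where chance flags about 5%. Genes that move together share these flags. In hMut replicate 6 there were 15. The flagged log2 CPM there were 6.32 for *Psmb8*, 6.03 for *Psmb9*, 7.32 for *Psmb10*, 6.99 for *Psme1*, 6.56 for *Psme2* and 5.68 for *Psme2b*. They were 6.74 for *Psmd11* and 3.05 for *Psmg4* among constitutive genes with roles in the cap and in core assembly. Outside the family they were 7.04 for *Tap1*, 5.97 for *Nlrc5* and 6.24 for *Irf1*. The immunoproteasome score of that heart was 1.90, and its log2 ratios were 0.059 for *Psmb8* to *Psmb5*, -0.36 for *Psmb9* to *Psmb6* and 0.71 for *Psmb10* to *Psmb7*.

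hMut replicate 9 was low in *Psmb6* (6.19) and *Psmb7* (6.30), the constitutive caspase-like and trypsin-like subunits. Ctrl replicate 3 was low in *Psmb4* (6.58), *Psmc2* (6.13) and *Psmc3ip* (0.85). Ctrl replicate 2 was high in the immunoproteasome score (0.32), so that a raised score was not limited to hMut hearts. *Psmd8*, the gene called between the groups, had no flagged heart.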

How the results depend on the processing

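No immunoproteasome gene was called under any of the 27 alternatives, and *Psmd8* was called in 27 of 28 fits, its own included, with log2 fold changes of 0.28 to 0.38 and adjusted p-values of 0.00152 to 0.126. The count of called proteasome genes, 1, became 2 with DESeq2 (*Psmd8*, *Psmd11*), 2 with limma-voom (*Psmd8*, *Psmb5*) and 2 without hMut replicate 2 (*Psmd8* higher, *Psme4* lower); over the libraries left out in turn it was 1 to 2, with 0 to 1 constitutive gene lower and 1 higher. limma-voom called 1 cofactor (*Nfe2l1*), and DESeq2 and limma-voom each called 1 antigen processing gene (*Canx*, lower), while leaving out libraries gave 0 to 2 (*Canx* and *Ifngr1* without hMut replicate 2). Library numbers did not pair the hearts: the correlation of deviations of same-numbered hearts was -0.23 to 0.34. With the replicate block, which leaves out hMut replicate 9, 0 proteasome genes were called (*Psmd8* log2 fold change 0.30, adjusted p = 0.126), 1.15% of all genes were called against 4.62% without it, and the block changed no other call among the proteasome, cofactor, ubiquitin and antigen processing genes.

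The immunoproteasome values depended on hMut replicate 6, in size though not always in sign. *Psmb10* stayed above 0 and *Psme1* below 0 in all 27 alternatives. The log2 fold change of *Psmb10* was 0.64 with DESeq2, 0.26 with limma-voom, 0.44 with the replicate block and 0.25 to 0.70 over the libraries left out in turn. The median log2 fold change of the 5 genes, 0.64, was 0.045 with DESeq2, 0.056 with limma-voom, 0.24 with the replicate block, -0.025 without hMut replicates 6 and 9, and -0.0042 to 0.70 over the libraries left out in turn. DESeq2 replaced the counts of that heart for *Psmb8* (3375 by 485) and *Psmb9* (2764 by 426), which gave *Psmb8* 0.045 and *Psmb9* -0.0072. limma-voom gave *Psme2* -0.024, *Tap1* -0.037, *Irf1* -0.0051 and *Psmb7* 0.0079, and DESeq2 gave *Tap1* -0.065. Without hMut replicates 6 and 9, *Psmb8* was -0.018, *Psmb9* -0.054, *Psme2* -0.025, *Psmb7* 0.026, *Tap1* -0.16, *Nlrc5* -0.076 and *Irf1* -0.084. *Psmb7* was 0.0072 with the block. *Psme3* was -0.0025 with sex as a covariate and -0.0074 with upper-quartile scaling.

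Over the libraries left out in turn, log2 fold changes that crossed 0 ranged from -0.0042 to 0.77 for *Psmb9*, -0.034 to 0.21 for *Psme2*, -0.059 to 0.96 for *Tap1*, -0.056 to 0.38 for *Irf1*, -0.011 to 0.056 for *Pomp*, -0.057 to 0.0070 for *Psmb7*, -0.0026 to 0.023 for *Psme3* and -0.0039 to 0.046 for *Psmg2*. The differences of the log2 ratios ranged from -0.065 to 0.33 for *Psmb8* to *Psmb5*, -0.022 to 0.36 for *Psmb9* to *Psmb6* and 0.28 to 0.59 for *Psmb10* to *Psmb7*. As differences of group medians the first pair came to -0.076 and -0.056, and without hMut replicates 6 and 9 to -0.15 and -0.11. The ratio of *Psmb10* to *Psmb7* came to 0.32 as a difference of medians (exact permutation p = 0.0385, adjusted p = 0.115). Without hMut replicates 6 and 9 it was 0.18. The cause was not tested. Depth limits *Psmb11*, *Psma8*, *Psmc3ip* and *Psmg3*, the genes with the lowest levels.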

Other observations

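Marker lists of other heart cells were read in the same fit, for the levels that accompany the proteasome values. Of 8 cardiomyocyte markers 0 were called by edgeR (5 had an unadjusted p under 0.05, DESeq2 called 4 and limma-voom 5), and their log2 fold changes were all below 0, with *Tnni3*, cardiac troponin I, at -0.43 and *Myh6*, the main adult myosin, at -0.34. Of 4 endothelial markers 1 rose, the VEGF receptor *Kdr* (log2 fold change 0.39, adjusted p = 0.0407, edgeR), while DESeq2 called 1 and limma-voom 3. Of 4 fibroblast markers 0 were called by edgeR, DESeq2 or limma-voom, and 4 had an unadjusted p under 0.05 in edgeR. Over all genes, 25.8% had an unadjusted p under 0.05 in edgeR, which called 3.48% higher and 1.14% lower. DESeq2 called 6.21% and limma-voom 7.26% of all genes higher. Their shares of all genes called lower were not read, so their counts of cardiomyocyte markers have no matching background here. The part of these cell types in the *Psmd8* and immunoproteasome values was not tested. *Tnni3* and *Myh6* were named after their values were seen.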
